A study of Drosophila melanogaster with 9 samples.

Results

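The Imd pathway is the route by which insect cells sense the peptidoglycan of Gram-negative bacteria. In the *Drosophila* midgut, the membrane receptor *PGRP-LC* and the intracellular receptor *PGRP-LE* bind peptidoglycan and recruit the adaptors *imd* and *Fadd* and the caspase *Dredd*. The IKK complex, of which *key* is the regulatory subunit, and *Dredd* then act on *Rel*, an NF-kB factor that induces antimicrobial peptides. It also induces its own brakes, among them *pirk*, which interferes with the receptor complex, and *PGRP-LB*, an amidase that degrades peptidoglycan. *PGRP-SC2* is a secreted amidase of the gut. These 10 genes were taken by symbol from the table of 17481 genes, and all 10 were found in it.

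Their RNA was measured in FACS-sorted Dl > GFP+ cells of the adult intestine, in 3 groups of 3 libraries. Per the study's methods for control and *gro-RNAi*, Dl-Gal4, a driver of intestinal stem cells (ISCs), expressed GFP under a temperature-sensitive Gal80. Those flies were crossed at a lower temperature and moved to a higher one before dissection. The flies of all 3 groups were labelled 5 to 7 days old. The control (Dl-GFP, genotype given as wild type) expressed GFP alone, *gro-RNAi* flies also carried *groucho* RNAi, and *Notch-RNAi* flies carried *notch* RNAi. Each control and *gro-RNAi* library came from a pool of dissected midguts per the study's methods, which do not name the *gro* RNAi line of these libraries or describe the *Notch-RNAi* flies separately. The p-values weigh differences between group means against the spread between libraries within the 3 groups.

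The values are FPKM, fragment counts scaled by the authors for transcript length and for the size of the library. Low values moved in steps of single reads, from which the libraries held about 7640000 to 18900000 reads. *N* fell in *Notch-RNAi*, from 35.4 ± 6.34 to 13.3 ± 3.23 FPKM (SD, n = 3 libraries each, limma adjusted p = 0.00242), while *gro* had 19.9, 27.8 and 15.3 FPKM in control against 3.69, 13.8 and 9.53 in *gro-RNAi*, lower in every library but not called (adjusted p = 0.094 by limma). The lists of markers of hemocytes, fat body and visceral muscle each summed to at most 4.61 FPKM in any library. Those of enteroendocrine cells (EEs, 12 genes) summed to between 1443 and 2915 FPKM in control, and those of progenitors (5 genes, none at 0 throughout a group) to between 146 and 261, so RNA of both was present in the sorted cells. In these bulk libraries, fewer cells of a type and less RNA per cell cannot be told apart.

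Genes averaging 0.1 FPKM or more over the 9 libraries were compared on the scale log2(FPKM + 0.1) with limma, and genes with a Benjamini-Hochberg adjusted p under 0.05 over the 11493 tested genes are called. All 10 members passed the filter on low values. The median log2 fold change of all tested genes was 0.27 in *gro-RNAi* and 0.46 in *Notch-RNAi* against control, and -0.18 in *gro-RNAi* against *Notch-RNAi*. Fold changes are therefore also given relative to these medians. The most abundant RNA, lncRNA:CR40469, took 14.4% to 16.4% of the summed FPKM in control and 5.85% to 14.0% in *gro-RNAi*, and no single RNA took more than 4.35% in *Notch-RNAi*.

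The members called in any comparison were the feedback inhibitor *pirk* and the amidase *PGRP-LB*. In *Notch-RNAi*, *pirk* was 3.41-fold higher than in control and *PGRP-LB* was 2.87-fold lower by the ratio of means. In *gro-RNAi*, *pirk* was 1.83-fold higher. The receptors, the adaptors, *Dredd*, *key* and *Rel* were not called in any of the 3 comparisons. Of the 10 members, 1 was called in *gro-RNAi* against control, where 7.49% of all tested genes were called (6.26% higher and 1.23% lower). In *Notch-RNAi* against control 2 were called, 1 higher and 1 lower, where 28.7% of all tested genes were called (24.4% higher and 4.29% lower). In *gro-RNAi* against *Notch-RNAi* 2 were called, again 1 in each direction, where 7.46% of all genes were called (2.6% higher and 4.86% lower). After a common median was set for all libraries (centring), 0, 3 and 2 members were called in these comparisons. The share of all genes called was then 1.84% higher and 2.69% lower in the first, 8.34% higher and 11.3% lower in the second, and 3.79% higher and 3.67% lower in the third. The members' median log2 fold changes without centring were -0.075, 0.23 and -0.39 in the same order.

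**Figure D1:**
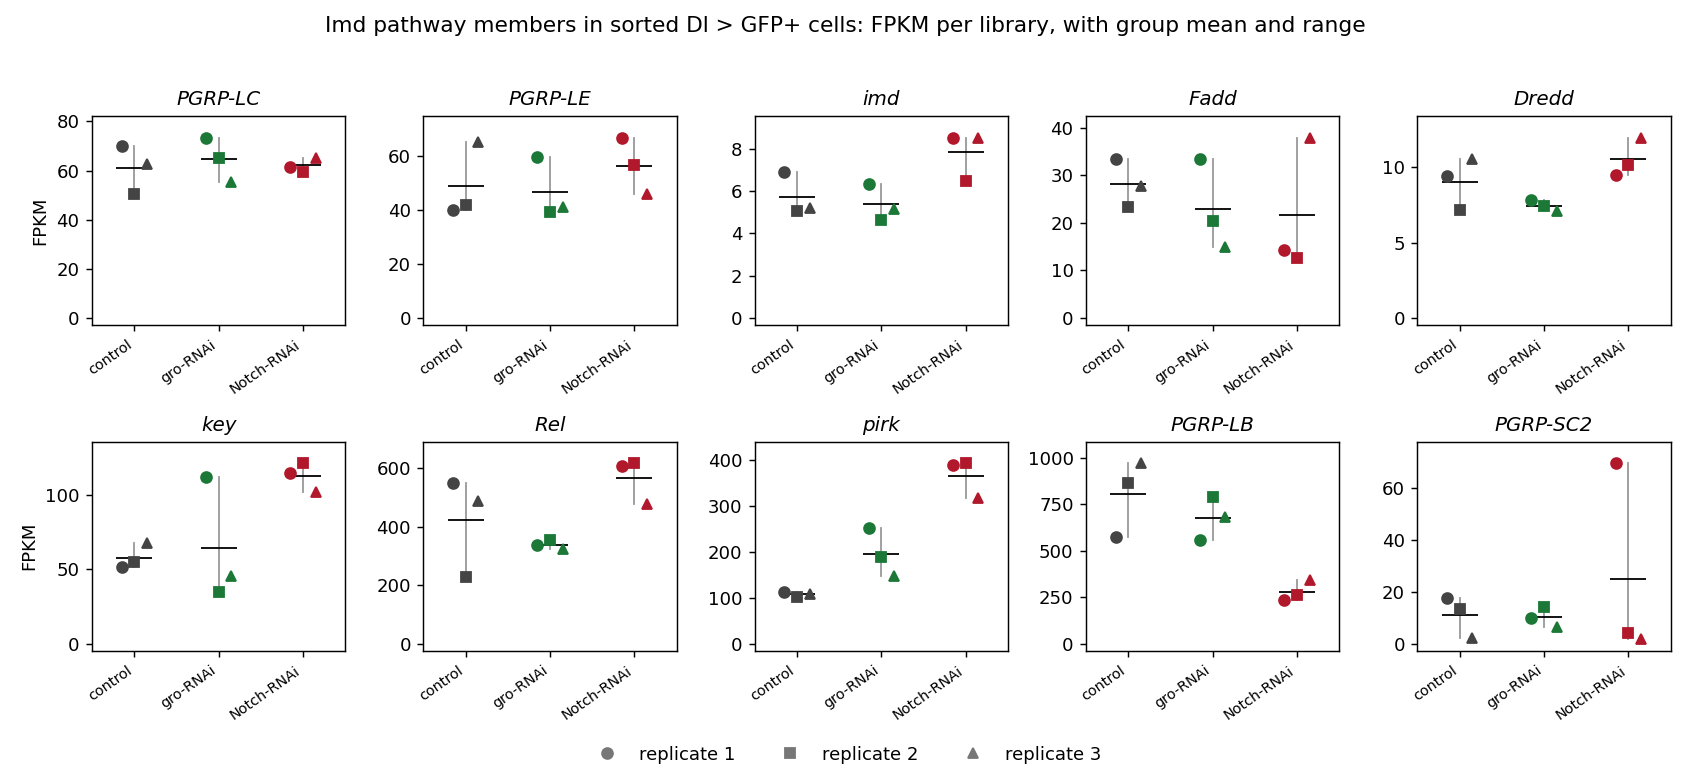
FPKM of the 10 members (y axis, linear from 0) in each of the 9 libraries, by group. Symbols are replicates 1 to 3, black bars are group means and grey lines span the lowest to the highest library. All *pirk* values in *Notch-RNAi* (317 to 392) lie above control (101 to 113), and all *PGRP-LB* values (233 to 345) lie below control (576 to 970).

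*pirk* (FBgn0034647, chromosome 2R from 21660967 to 21662995 on the minus strand of release 6) overlaps no other annotated gene. It had 113, 101 and 107 FPKM in libraries 1, 2 and 3 of the control. The values were 253, 187 and 147 in *gro-RNAi* and 388, 392 and 317 in *Notch-RNAi*. The 3 groups did not overlap and stood in the order control, *gro-RNAi*, *Notch-RNAi*. The control libraries lay close together (107 ± 5.97 FPKM, SD, n = 3), and *gro-RNAi* had the widest spread (196 ± 53.3). In *Notch-RNAi* the log2 fold change was 1.77 (standard error, SE, 0.20, adjusted p = 7.15e-04 by limma), which is 1.31 beyond the median gene. All 9 alternative settings and all 6 fits without 1 library kept this call.

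In *gro-RNAi* the log2 fold change of *pirk* was 0.83 (SE 0.20, adjusted p = 0.0393 by limma), which is 0.57 beyond the median gene. This call was lost under 5 of 9 alternative settings (adjusted p between 0.0343 and 0.117), among them centring the libraries on the same median, where the log2 fold change was 0.47. Without any 1 of the 3 control libraries, or without *gro-RNAi* replicate 1 or 2, it was lost too, and without replicate 3 it was kept. Without replicate 1, the *gro-RNAi* library with the highest *pirk*, the log2 fold change was 0.63 (adjusted p = 0.0684). *pirk* was lower in *gro-RNAi* than in *Notch-RNAi* by a log2 difference of -0.93 (SE 0.20, limma adjusted p = 0.0287). That call was lost without *gro-RNAi* replicate 2 or 3 or without *Notch-RNAi* replicate 1 or 2, with adjusted p up to 0.125, and under 2 of 9 settings, a fit of those 6 libraries alone (0.0627) and one prior variance for every gene (0.0534).

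*PGRP-LB* (FBgn0037906, chromosome 3R from 11452849 to 11460552, minus strand) was the most abundant member in control and *gro-RNAi*, while *Rel* and *pirk* had higher means in *Notch-RNAi*. By mean control FPKM it held place 165 of the 11493 tested genes. It has 6 annotated transcripts, and the deposited values do not separate them. It had 576, 866 and 970 FPKM in control, 558, 790 and 681 in *gro-RNAi*, and 233, 263 and 345 in *Notch-RNAi*. The *Notch-RNAi* libraries all lay below the other 6, whereas control and *gro-RNAi* overlapped. The log2 fold change in *Notch-RNAi* was -1.51 (SE 0.24, adjusted p = 0.00288 by limma), which is -1.97 from the median gene, and every alternative setting and every fit without 1 library kept the call.

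In *gro-RNAi*, *PGRP-LB* had a log2 fold change of -0.23 against control (95% confidence interval -0.77 to 0.31, limma adjusted p = 0.59). It was higher in *gro-RNAi* than in *Notch-RNAi* by 1.28 (SE 0.24, limma adjusted p = 0.0182). All 9 settings kept that call. It was lost without *gro-RNAi* replicate 2 or 3 or without *Notch-RNAi* replicate 1 or 2, with adjusted p up to 0.0934. CG17230, which overlaps *PGRP-LB* on the other strand, had 2.52 ± 0.254 FPKM in control and 1.38 ± 0.223 in *Notch-RNAi* (SD, n = 3 libraries each), far below *PGRP-LB* itself.

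The ratio of *PGRP-LB* to *pirk* within a library does not depend on linear scaling between libraries. It was 5.10, 8.57 and 9.06 in control, 2.21, 4.21 and 4.64 in *gro-RNAi*, and 0.60, 0.67 and 1.09 in *Notch-RNAi*. The 3 groups did not overlap in this ratio, which was calculated after the values of both genes had been seen.

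Cell type markers also differed between the groups. The summed progenitor markers (5 genes) were at 146 to 261 FPKM in control, 202 to 374 in *gro-RNAi* and 246 to 311 in *Notch-RNAi*. In each RNAi group 2 of the 5 were called higher, where 6.26% and 24.4% of all tested genes were. *Dl* itself had means of 5.86, 42.0 and 46.7 FPKM in the same order (limma adjusted p = 0.00484 and 0.00106 against control). The summed EE markers, at 1443 to 2915 FPKM in control, were at 3695 to 4063 in *Notch-RNAi* and at 2259 to 5520 in *gro-RNAi*, where replicate 1 was the highest and the others were at 2446 and 2259. In *Notch-RNAi* 4 of the 12 were called higher and 3 lower, where 24.4% and 4.29% of all tested genes were. The EE sum thus joins opposite changes, with a log2 fold change above 0 for 8 of the 12. *Tk*, *NPF* and *Dh31* had means of 101, 300 and 22.6 FPKM in control and 4.44, 3.71 and 1.52 in *Notch-RNAi*. None of the 12 EE markers was at 0 throughout a group. The summed enterocyte markers (12 genes, none at 0 throughout a group) ran from 186 to 451 FPKM in control, from 300.2 to 883 in *gro-RNAi* and from 161 to 787 in *Notch-RNAi*, so these ranges overlapped. Enteroblasts are the progeny that differentiate towards enterocytes. Their summed markers (4 genes) were at 32.1 to 59.5 FPKM in control, 82.6 to 147 in *gro-RNAi* and 10.8 to 15.6 in *Notch-RNAi*. Of these 4 genes, 3 were called lower in *Notch-RNAi* and 1 higher, *E(spl)m8-HLH* (means 0.567 FPKM in control and 4.55 in *Notch-RNAi*). The list holds 3 genes of the *E(spl)* complex, whose genes the paper describes as major Notch targets. The part of any of these cell types in the values of *pirk* and *PGRP-LB* was not tested.

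**Figure D2:**
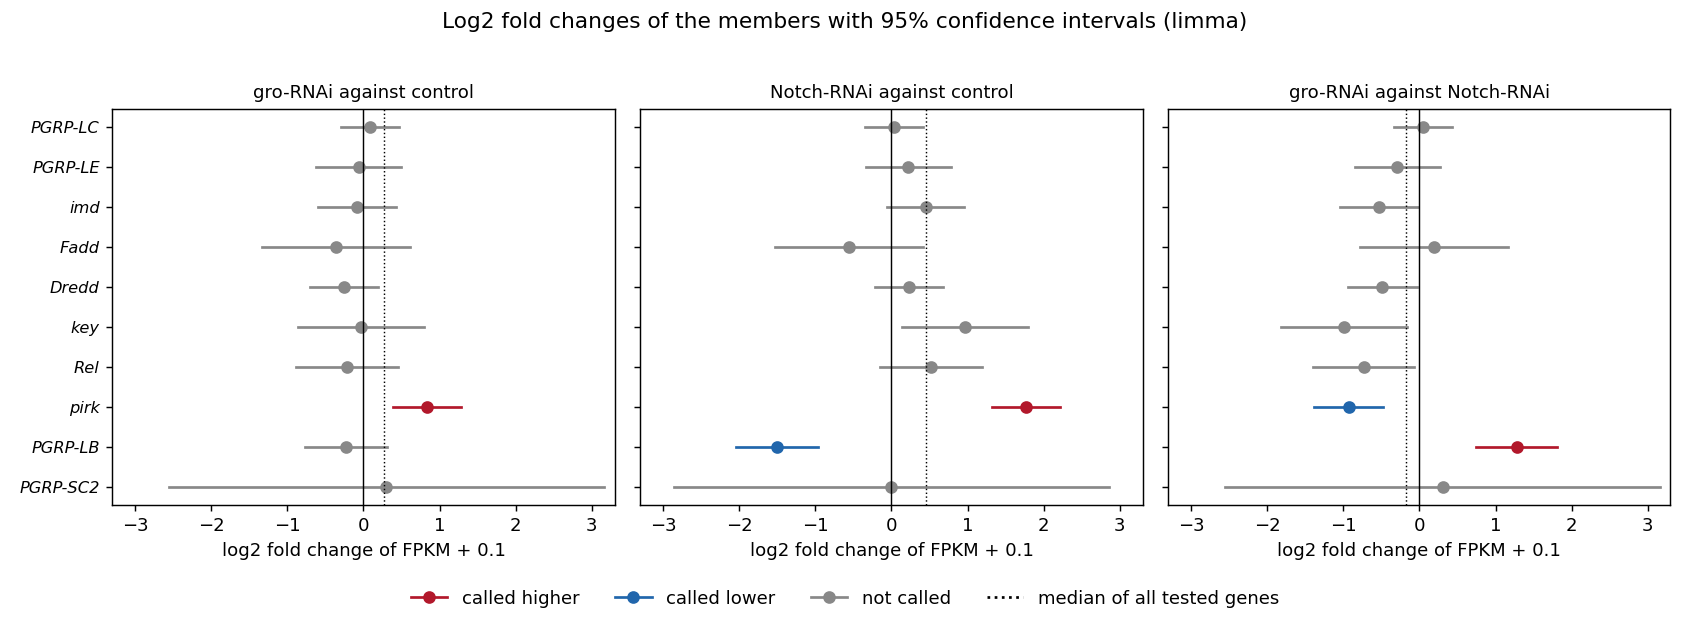
Log2 fold changes of log2(FPKM + 0.1) (x axis) of the 10 members in the 3 comparisons, with 95% confidence intervals from limma (n = 3 libraries per group). Red and blue mark called genes and the dotted line the median of all tested genes. *pirk* (1.77) and *PGRP-LB* (-1.51) stand apart in *Notch-RNAi* against control, and the intervals of *PGRP-SC2* span over 2 log2 units to either side of 0.

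The receptors were examined next. *PGRP-LC* (FBgn0035976, chromosome 3L from 9338810 to 9348336, plus strand) has 10 annotated transcripts, which encode receptors with different ectodomains and are summed here. It had 70.0, 50.3 and 62.5 FPKM in control, 73.4, 65.2 and 55.4 in *gro-RNAi*, and 61.5, 59.5 and 65.3 in *Notch-RNAi*. All 3 groups overlapped. The log2 fold changes were 0.089 in *gro-RNAi* (95% confidence interval -0.29 to 0.47) and 0.039 in *Notch-RNAi* (-0.34 to 0.42), with limma adjusted p of 0.788 and 0.884. After centring on the same median the direction turned to -0.28 in *gro-RNAi* and -0.46 in *Notch-RNAi*, and the latter passed the threshold (adjusted p = 0.0449).

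*PGRP-LE* (FBgn0030695, chromosome X from 15801153 to 15803880, minus strand) was, per length, at a level overlapping that of *PGRP-LC*. It had 40.1, 41.7 and 64.9 FPKM in control, 59.4, 39.0 and 40.9 in *gro-RNAi*, and 66.7, 56.6 and 45.8 in *Notch-RNAi*. All 3 groups overlapped. The log2 fold change was -0.065 in *gro-RNAi* (95% confidence interval -0.63 to 0.50) and 0.22 in *Notch-RNAi* (-0.34 to 0.79), and centring turned the latter to -0.28.

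Downstream of the receptors, *imd* (FBgn0013983, chromosome 2R from 18409796 to 18413599, minus strand), the death-domain adaptor, was the lowest member in control. It had 6.90, 5.05 and 5.22 FPKM in control, 6.34, 4.64 and 5.16 in *gro-RNAi*, and 8.52, 6.46 and 8.52 in *Notch-RNAi*. The log2 fold changes were -0.084 in *gro-RNAi* and 0.45 in *Notch-RNAi* (limma adjusted p = 0.859 and 0.164), and after centring the latter was -0.054. *imd* overlaps *Dp1* and *GstE9* on the other strand.

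*Fadd* (FBgn0038928, chromosome 3R from 22034455 to 22035617, plus strand), which links *imd* to *Dredd*, overlaps *pit* on the same strand. It had 33.4, 23.4 and 27.7 FPKM in control, 33.5, 20.5 and 14.9 in *gro-RNAi*, and 14.3, 12.6 and 37.9 in *Notch-RNAi*. *Notch-RNAi* replicate 3 was the highest of all 9 libraries, and the other *Notch-RNAi* libraries were the lowest. The log2 fold change in *Notch-RNAi* was -0.55 (95% confidence interval -1.52 to 0.42, limma adjusted p = 0.36). Without replicate 3 it was -1.05, with an adjusted p of 0.052.

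*Dredd* (FBgn0020381, chromosome X from 633622 to 635545, minus strand), the caspase that cleaves *imd* and *Rel* proteins, varied little. It had 9.04 ± 1.70 FPKM in control, 7.46 ± 0.363 in *gro-RNAi* and 10.5 ± 1.28 in *Notch-RNAi* (SD, n = 3 libraries each). The *gro-RNAi* libraries (7.11 to 7.83) all lay below the *Notch-RNAi* libraries (9.48 to 11.96), but their difference of -0.49 was not called (adjusted p = 0.161 by limma).

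*key* (FBgn0041205, chromosome 2R from 24785514 to 24787411, minus strand), the IKK subunit, overlaps CG3589 on the other strand. It had 51.5, 54.9 and 67.4 FPKM in control, 112, 34.95 and 45.5 in *gro-RNAi*, and 114.8, 121 and 102 in *Notch-RNAi*. The *Notch-RNAi* libraries all lay above control, and *gro-RNAi* replicate 1 was at their level while the other *gro-RNAi* libraries lay below every control library. In *Notch-RNAi* the log2 fold change was 0.97 (SE 0.37), 0.51 beyond the median gene, and *key* was not called (adjusted p = 0.0775 by limma). A fit of those 6 libraries alone called it (adjusted p = 0.0088), and no fit without 1 library did. Against *Notch-RNAi*, *gro-RNAi* differed by -0.996 (limma adjusted p = 0.127), and by -1.49 without *gro-RNAi* replicate 1 (adjusted p = 0.00466).

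*Rel* (FBgn0014018, chromosome 3R from 9044183 to 9047977, minus strand) overlaps *Nmdmc* on the same strand. In control it was the next most abundant member after *PGRP-LB*, at place 280 by mean FPKM. It had 548, 228 and 486 FPKM in control, 337, 355 and 324 in *gro-RNAi*, and 607, 616 and 476 in *Notch-RNAi*. Control replicate 2 was the lowest of all libraries, and the control range covered all of *gro-RNAi*. The log2 fold changes were -0.22 in *gro-RNAi* (95% confidence interval -0.88 to 0.45) and 0.52 in *Notch-RNAi* (-0.15 to 1.18), with limma adjusted p of 0.693 and 0.218. The latter fold change was 0.013 after centring and 0.12 without control replicate 2. *gro-RNAi* lay below *Notch-RNAi* in all libraries, by -0.73 (limma adjusted p = 0.158), and a call was made under 1 setting, a fit of those 6 libraries alone (adjusted p = 0.0397).

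Counted over the members, 2 were higher in every *Notch-RNAi* library than in every control library (*key* and *pirk*), where 39.0% of all tested genes were, and 1 was lower (*PGRP-LB*), where 8.0% of all genes were. In *gro-RNAi* against control 1 was higher (*pirk*), where 21.5% of all genes were, and none was lower, where 4.9% were. In *gro-RNAi* against *Notch-RNAi*, 4 were lower in every library (*Rel*, *imd*, *Dredd* and *pirk*) and 1 was higher (*PGRP-LB*), where 22.3% and 10.9% of all genes were. For any such gene an exact permutation test over 3 against 3 libraries gives p = 0.1, two-sided, the smallest it allows.

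*PGRP-SC2* (FBgn0043575, chromosome 2R from 8716950 to 8717695, plus strand) differed more between replicates than between groups. It had 17.4, 13.5 and 1.97 FPKM in control, 9.74, 14.2 and 6.47 in *gro-RNAi*, and 69.4, 3.87 and 1.67 in *Notch-RNAi*. The lowest of these values rest on about 17 to 24 reads, and that of *Notch-RNAi* replicate 1 on about 905. That library stood apart from the other 8. No difference was detectable (95% confidence interval of the log2 fold change -2.56 to 3.16 in *gro-RNAi* and -2.86 to 2.85 in *Notch-RNAi*, limma adjusted p = 0.916 and 1).

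Its neighbours on the chromosome, the amidase genes *PGRP-SC1a* (from 8709733 to 8710320) and *PGRP-SC1b* (from 8713446 to 8715094), were near 0 elsewhere and were raised in the same library. *PGRP-SC1a* had 4.48 FPKM in *Notch-RNAi* replicate 1 and at most 0.59 in any other library, and *PGRP-SC1b* had 3.38 and at most 0.171. These are near-identical copies whose reads the counting could split, so their separate values are uncertain. The enterocyte gene *LManV*, chosen after its values were seen, was at 10.3 FPKM in that library and at most 1.94 in the others. Of the 12 enterocyte markers, 3 were highest in that library, 4 in *Notch-RNAi* replicate 2, 3 in *gro-RNAi* replicate 1 and 2 in control replicate 1. The whole enterocyte list summed to 779 FPKM in *Notch-RNAi* replicate 1 against 787 and 161 in replicates 2 and 3. The part of enterocyte RNA in these values was not tested.

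**Figure D3:**
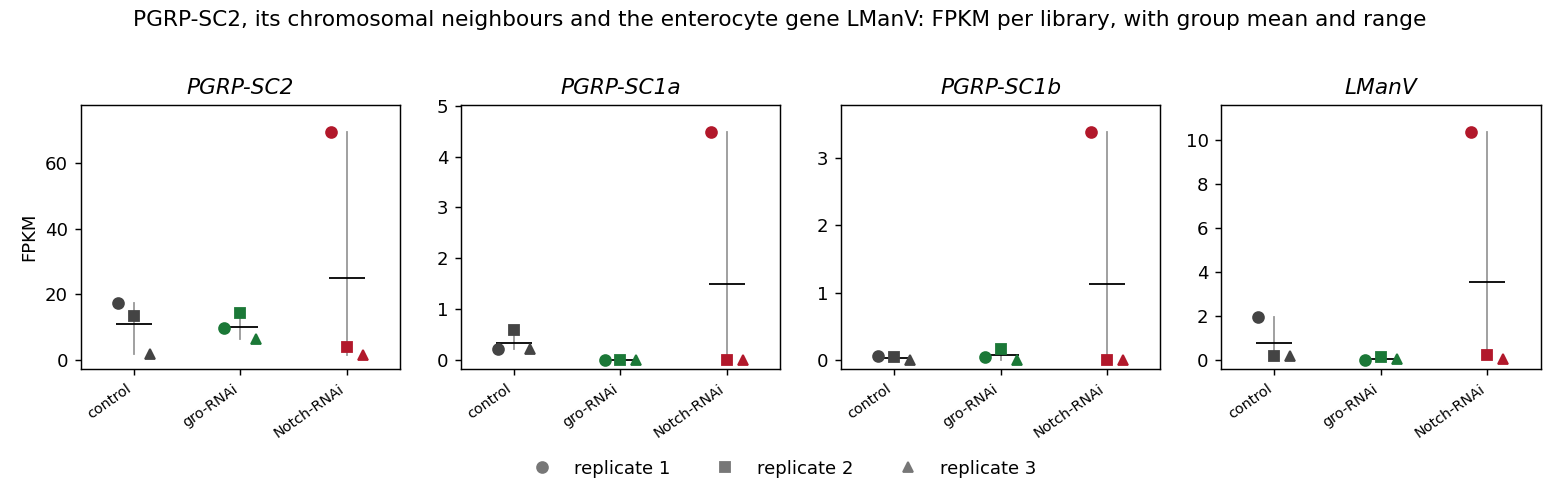
FPKM (y axis, linear) of *PGRP-SC2*, *PGRP-SC1a*, *PGRP-SC1b* and the enterocyte gene *LManV* in each library by group, with group means (black) and ranges (grey). *Notch-RNAi* replicate 1 is the highest library in all 4 panels, at 69.4, 4.48, 3.38 and 10.3 FPKM. *LManV* was chosen after its values were seen, and 3 of the 12 enterocyte markers are highest in that library.

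The rest of the pathway was read from a list of 27 other genes, of which 26 matched the table and 25 passed the filter on low values. The list holds the remaining PGRP genes, the kinase and ubiquitin steps between *imd* and *Rel*, and regulators of *Rel*. Among these PGRP genes is *PGRP-SA*, a receptor of the Toll pathway, which is counted in the calls below. In *gro-RNAi* against control none of the 25 was called by limma, where 7.49% of all tested genes were. Of the 25, 4 had an unadjusted p under 0.05, as did 24.9% of all tested genes. In *Notch-RNAi* against control 10 were called, 9 higher and 1 lower, or 40.0% against 28.7% of all tested genes. The median log2 fold change of all 25 genes, called or not, was 0.38, against 0.46 over all tested genes. After centring on the same median 4 were called, *Charon* higher and *Tab2*, *Tak1* and *PGRP-LD* lower, where 8.34% of all genes were called higher and 11.3% lower. Without *Notch-RNAi* replicate 1 or without replicate 2, 1 gene was called, and without each of the other 4 libraries between 4 and 6 were. In *gro-RNAi* against control, 2 were called without control replicate 1.

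*Charon*, a nuclear ankyrin-repeat protein that acts on *Rel*, was the gene of this list whose call held under every alternative. It rose from 12.4 ± 3.48 to 40.9 ± 3.90 FPKM in *Notch-RNAi* (SD, n = 3 libraries each, log2 fold change 1.75, SE 0.33, limma adjusted p = 0.0062), and all 9 settings and all 6 fits without 1 library kept the call. In *gro-RNAi* it had 27.7, 12.04 and 11.9 FPKM, and replicate 1 alone lay above the control range of 10.3 to 16.4.

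Further genes of this list were called higher in *Notch-RNAi*. *CYLD* and *scny*, both deubiquitinases, had 7.42 ± 2.51 and 15.0 ± 1.95 FPKM in control and 15.2 ± 2.40 and 26.8 ± 4.27 in *Notch-RNAi* (SD, n = 3 libraries each, limma adjusted p = 0.0194 and 0.0107). *POSH*, a ubiquitin ligase that acts on *Tak1*, rose by 1.01 on the log2 scale (limma adjusted p = 0.0434), and *casp*, which restrains *Rel* cleavage, by 0.61 (limma adjusted p = 0.0373). After centring these 4 genes had log2 fold changes of 0.57, 0.33, 0.51 and 0.10 and were not called. *SkpA* and *ben*, which the naming rule leaves out and which were named after their values were seen, rose by 0.57 and 0.42 (limma adjusted p = 0.0436 and 0.0384). After centring *SkpA* was at 0.071 and *ben* at -0.081, and neither was called. *CYLD* and *scny* lost the call without *Notch-RNAi* replicate 1 or 2, and the calls of *POSH*, *casp*, *SkpA* and *ben* were kept in 2, 1, 1 and 0 of the 6 fits without 1 library.

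*Tab2*, the partner of the kinase *Tak1*, was the gene that fell. It had 10.9 ± 1.66 FPKM in control and 6.72 ± 0.276 in *Notch-RNAi* (SD, n = 3 libraries each), and fell by 0.68 on the log2 scale (adjusted p = 0.0337 by limma), with -1.19 after centring. The call was kept in 1 of the 6 fits without 1 library, that without control replicate 1.

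Among the other peptidoglycan recognition genes, the secreted *PGRP-SD* and *PGRP-SA* were higher in *Notch-RNAi*. *PGRP-SD*, which helps present peptidoglycan to the receptors, had 134 ± 10.8 FPKM in control, 91.3 ± 16.6 in *gro-RNAi* and 237 ± 76.0 in *Notch-RNAi* (SD, n = 3 libraries each, limma adjusted p = 0.0477 for *Notch-RNAi* against control). *PGRP-SA*, a receptor of the Toll pathway, had 1.47, 1.16 and 2.21 FPKM in control and 10.6, 9.58 and 3.51 in *Notch-RNAi* (limma adjusted p = 0.0481). Both calls were lost after centring (adjusted p = 0.536 and 0.112) and were kept in 1 of 6 fits without 1 library. *PGRP-SD*, *PGRP-SA* and *Charon* were lower in *gro-RNAi* than in *Notch-RNAi* (limma adjusted p = 0.019, 0.0406 and 0.0418). These were the 3 of the 25 genes called there, where 4.86% of all tested genes were called lower and 2.6% higher. After centring they stayed called, and *cad* was called higher by 0.99 (limma adjusted p = 0.0439). Of all tested genes, 3.67% were then called lower and 3.79% higher. Without *gro-RNAi* replicate 2 or 3 or *Notch-RNAi* replicate 1 or 2 none of the 25 genes was called there, and without *gro-RNAi* replicate 1 there were 5. *PGRP-LA* and *PGRP-LF*, which flank *PGRP-LC* on chromosome 3L, were not called in any comparison, with 140.4 ± 39.5 and 54.6 ± 11.9 FPKM in control (SD, n = 3 libraries).

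**Figure D4:**
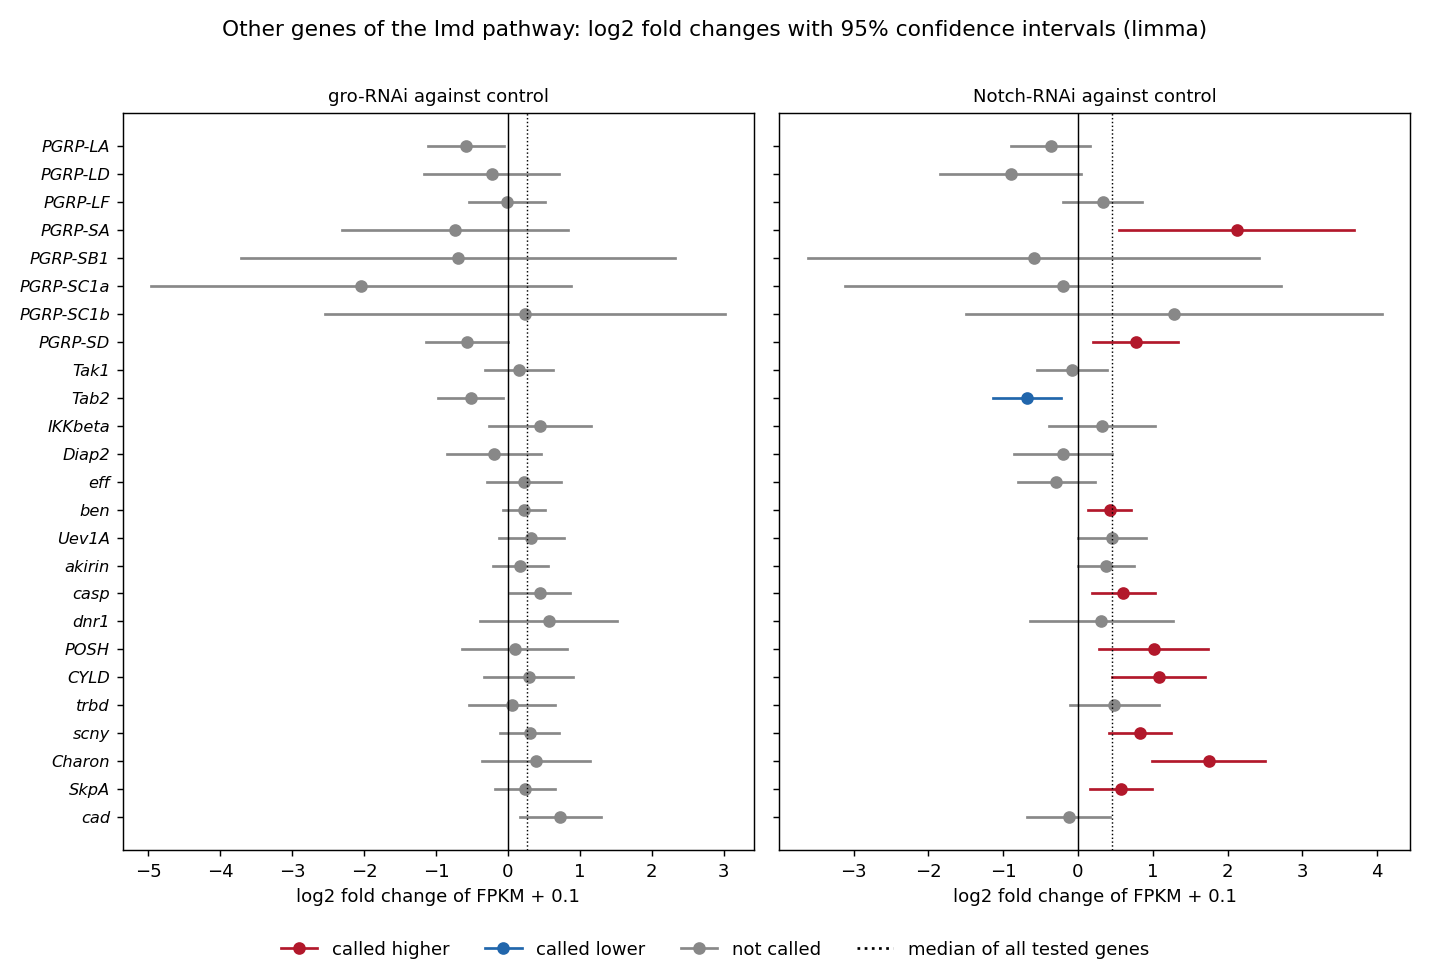
Log2 fold changes of log2(FPKM + 0.1) (x axis) of the 25 tested genes of the list of other Imd pathway genes, with 95% confidence intervals from limma (n = 3 libraries per group). Red and blue mark called genes and the dotted line the median of all tested genes. None is called in *gro-RNAi* against control, and 9 higher and 1 lower are called in *Notch-RNAi* against control.

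The 3 genes whose pattern over the 9 libraries was most like that of *pirk*, by Pearson's r of log2(FPKM + 0.1) among genes averaging 1 FPKM or more, were CG34149 (r = 0.992), *oys* (0.989) and *dimm* (0.987). *dimm*, a transcription factor of peptide-secreting cells, had 0.109 to 0.146 FPKM in control, 0.366 to 1.14 in *gro-RNAi* and 2.71 to 3.61 in *Notch-RNAi*. For *PGRP-LB* they were CG10433 (r = 0.964), CG11836 (0.960) and CG13204 (0.957). CG10433 had 104 to 160 FPKM in control, 68.5 to 84.9 in *gro-RNAi* and 19.7 to 32.4 in *Notch-RNAi*. These are descriptions over libraries that share their groups.

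Of the antimicrobial peptide genes, 13 of 14 matched and 11 were tested. In *gro-RNAi* against control 2 were called, both lower, where 1.23% of all tested genes were called lower. They were *AttD* and *CecC*, and *CecC* was low, with at most 3.66 FPKM in any library. Its call was kept in 6 of the 8 settings that tested it (limma adjusted p up to 0.0756). All 6 fits without 1 library kept it too. In *Notch-RNAi* 1 was called higher and 2 lower, where 24.4% and 4.29% of all genes were. *AttD*, the most abundant of them by group mean, fell from 161 ± 11.2 FPKM in control to 60.0 ± 3.56 in *gro-RNAi* (SD, n = 3 libraries each, limma adjusted p = 0.00938). In *Notch-RNAi* it had 102 ± 38.3 FPKM (limma adjusted p = 0.0451), a call kept without *Notch-RNAi* replicate 3 and lost without any other library.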

How the data were processed

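The authors deposited FPKM for 17481 genes in 9 libraries of amplified RNA. Their processing notes name STAR 2.5.2b and the build BDGP6. The counting tool, its use of strand and any scaling between libraries are not given in the sources used here. Symbols came from the reference tables and positions from Ensembl release 115 (BDGP6). Depth was estimated from the steps between values under 0.3 FPKM in genes with 1 transcript of at least 2500 nt, where between 89.8% and 96.3% of the values used lay within 0.15 of a whole read. Read numbers cover counting error only.

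Genes averaging 0.1 FPKM or more were fitted with limma 3.58.1 in R 4.3.3 (lmFit, eBayes with trend) on log2(FPKM + 0.1), in 1 fit over 9 libraries with no replicate block. This fold change understates that of low genes. The fit was tested on simulated data that held as many raised as lowered genes and no shift over all genes. That test therefore does not bear on the scaling between libraries. Alternatives were another pseudocount (1, 0.01) or filter (1 FPKM, none), a fit of 6 libraries alone, a replicate block, centring on the same median, a single prior variance, quantile normalization, and each library left out. Other steps used Python 3.11.15.

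The members and gene lists were chosen with earlier results of these data known. Text names every member, up to 8 called genes of the pathway list and up to 3 of the Toll and antimicrobial lists per comparison by size of change, and 3 genes of like pattern for the 2 members with the lowest adjusted p.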

Additional observations from a re-analysis of the deposited data

How the results depend on the processing

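Of the members, *pirk* and *PGRP-LB* in *Notch-RNAi* against control kept direction and call under every alternative. In *gro-RNAi* against control the 1 member called became 0 with no filter, centring, quantile normalization, only the 6 libraries compared and one prior variance, and 0 to 1 with a library left out. In *gro-RNAi* against *Notch-RNAi* the 2 became 1 with one prior variance (*pirk* lost), stayed at 2 with only the 6 libraries compared (*pirk* lost, *Rel* gained), and became 0 to 3 with a library left out. Of the other Imd pathway genes, the 10 called in *Notch-RNAi* became 6 with no filter, 4 with centring, 3 with quantile normalization, 4 with one prior variance and 1 to 6 with a library left out. The 0 called in *gro-RNAi* became 1 with centring and 0 to 2 with a library left out. The 3 called in *gro-RNAi* against *Notch-RNAi* became 1 with no filter, 0 with only 6 libraries, 1 with one prior variance and 0 to 5 with a library left out. The share of all tested genes called is given only for the fit without alternatives and for centring. Under the other alternatives, a change in these counts is therefore not told apart from a change over all genes. Fewer libraries leave fewer degrees of freedom, and otherwise the cause was not tested.

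Directions of uncalled members turned as follows, as log2 fold changes. In *gro-RNAi* against control, centring and quantile normalization gave -0.28 and -0.16 for *PGRP-LC* and -0.064 and -0.050 for *PGRP-SC2*. In *Notch-RNAi* against control they gave -0.054 and -0.044 for *imd*, -0.27 and -0.23 for *Dredd*, -0.46 and -0.34 for *PGRP-LC*, and -0.28 and -0.17 for *PGRP-LE*, and a pseudocount of 1 gave 0.069 for *PGRP-SC2*. With a library left out, the ranges in *gro-RNAi* against control were -0.61 to 0.023 for *Rel*, -0.21 to 0.056 for *imd*, -0.53 to 0.31 for *key*, -0.043 to 0.20 for *PGRP-LC*, -0.26 to 0.16 for *PGRP-LE* and -0.66 to 0.87 for *PGRP-SC2*. In *Notch-RNAi* against control they were -0.092 to 0.15 for *PGRP-LC* and -1.58 to 1.07 for *PGRP-SC2*, and in *gro-RNAi* against *Notch-RNAi* -0.12 to 0.69 for *Fadd*, -0.046 to 0.16 for *PGRP-LC* and -0.77 to 1.88 for *PGRP-SC2*.

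Libraries with the same number did not deviate together (correlations between -0.046 and 0.072 over 9 pairs, against -0.089 to 0.12 over 18 other pairs). The sample titles give a shared number only, and with so few libraries a shared batch was not tested. With a replicate block, 4 of the other Imd pathway genes were called in *Notch-RNAi* against control and 1 in *gro-RNAi* against *Notch-RNAi*. No member's call changed with the block.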

Other observations

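The Toll pathway, the other NF-kB route of flies, was measured through 14 tested genes. In *Notch-RNAi* against control limma called 4 of them, all higher, where 24.4% of all tested genes were called higher. *spz*, the Toll ligand, had 4.20, 4.37 and 6.10 FPKM in control, 18.7, 8.58 and 8.08 in *gro-RNAi*, and 148, 184 and 213 in *Notch-RNAi*. Its log2 fold change in *Notch-RNAi* was 5.19 (standard error 0.32, limma adjusted p = 6.39e-05), kept under all 9 settings, and in *gro-RNAi* it was 1.16 (limma adjusted p = 0.062), which was not called. *cact*, the inhibitor that holds the Toll pathway factors in the cytoplasm, rose from 41.6 ± 8.33 to 97.2 ± 25.6 FPKM (SD, n = 3 libraries each, limma adjusted p = 0.00578). *psh*, a protease upstream of *spz*, was listed at 0 in all 3 control libraries and had 0.556, 1.05 and 0.243 FPKM in *Notch-RNAi*. These *Notch-RNAi* values rest on about 16, 28 and 8 reads. In *gro-RNAi* against *Notch-RNAi*, *spz* and *cact* were lower, by log2 differences of -4.03 and -1.04. The factor *Dif* was higher by 1.22 (limma adjusted p = 0.0369). In that comparison 4.86% of all tested genes were called lower and 2.6% higher. The calls of *cact* and *Dif* were kept in 2 and 1 of the 6 fits without 1 library. After centring, 3 of the 4 Toll calls in *Notch-RNAi* held and *Dif*, *dl*, *pli* and *GNBP1* were called lower. Of all tested genes, 8.34% were then called higher and 11.3% lower.

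Among the low antimicrobial peptide genes, *CecC* had 0.473, 0.839 and 3.66 FPKM in control and was listed at 0 in all 6 RNAi libraries. *CecA2* was listed at 0 in all control and *gro-RNAi* libraries and had 1.44, 1.96 and 0.337 FPKM in *Notch-RNAi*. Of 8 genes of the JNK branch, 2 were called higher in *gro-RNAi* and 3 in *Notch-RNAi*, where 6.26% and 24.4% of all tested genes were. Both counts include the low gene *grnd*, with means of 0.659 FPKM in control, 2.58 in *gro-RNAi* and 1.70 in *Notch-RNAi*. Its calls were each kept in 3 of 9 settings, and in 1 and 0 of the 6 fits without 1 library. After centring both were lost (limma adjusted p = 0.0724 and 0.173). After centring, *puc* was called higher in *Notch-RNAi* and *hep* lower (log2 fold change -0.81, limma adjusted p = 0.0169). Those named here were chosen after their values were seen. *bsk*, the JNK kinase, rose from 31.3 ± 2.98 FPKM in control to 61.0 ± 7.96 in *gro-RNAi* and 59.8 ± 0.812 in *Notch-RNAi* (SD, n = 3 libraries each, limma adjusted p = 0.00776 and 0.00288), and *puc*, the phosphatase that JNK signaling induces, rose from 72.9 ± 37.8 to 221 ± 53.4 FPKM in *Notch-RNAi* (SD, n = 3 libraries each, limma adjusted p = 0.00937). After centring, *bsk* in *Notch-RNAi* was not called (adjusted p = 0.0541).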
